A study of Homo sapiens with 4 samples.

Results

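Collagen genes were followed in RNA sequencing of cells labelled HepG2, a long-used human liver cancer line, in which the transcription factor STAT3 was targeted by a short hairpin RNA (shRNA). The collagens were the rows of the gene table whose symbol has the form COL, number, A, number. There were 37 such rows among 27452: 10 for fibrillar collagens, 6 for the type IV collagens of basement membranes and 21 for other types. One group held 2 libraries with STAT3 shRNA and the other 2 libraries with Ctrl shRNA, a control hairpin. The title speaks of STAT3 deletion, but the design text and library labels describe lines made with hairpins. They give no hairpin sequence or time, and do not say whether replicates were separate cultures or clones. What the p-values weigh is thus the variation among the 4 libraries, possibly a technical one.

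Collagens are extracellular proteins built from chains rich in glycine at a regular spacing, which wind around each other into a triple helix. Fibrillar collagens assemble into the cross-linked fibres of connective tissue, type IV collagens form the sheet-like network under epithelia and around vessels, and other types coat fibrils, anchor basement membranes or span the cell membrane. Each chain is a separate gene, and many trimers need chains of different genes in a fixed proportion. In liver, fibrillar collagen is made mainly by activated stellate cells and is the substance of fibrotic scar, while epithelial tumour cells are a known source of basement membrane collagens.

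Totals ran from 17694642 to 25862027 reads a library, so that 3 reads stood for 0.113 to 0.163 CPM (read counts set to a common library size after TMM scaling). Replicates were not copies of one library: chi-square over degrees of freedom between them was 3.43 for STAT3 shRNA and 10.3 for Ctrl shRNA, above sampling noise. STAT3 itself had 34.7 and 36.1 CPM with STAT3 shRNA and 245 and 244 CPM with Ctrl shRNA, a log2 fold change of -2.79 ± 0.09 (SE; adjusted p = 3.28e-07, edgeR quasi-likelihood test). Of the hepatocyte markers of the label, ALB and APOA1 were almost without reads. ALB, the gene of serum albumin, had 0 and 3 reads in the STAT3 shRNA libraries and 0 and 0 in the Ctrl shRNA libraries, and APOA1, the main protein of high-density lipoprotein, had 1 and 2 against 0 and 0. Together with TF and HNF4A they summed to 8.14 and 5.65 CPM in STAT3 shRNA libraries and 3.29 and 3.92 CPM in Ctrl shRNA libraries, with TF lower and HNF4A higher in the STAT3 shRNA group. The other 5 listed hepatocyte markers (AFP, APOB, TTR, SERPINA1 and FGB) were not analysed here. HNF4A did have reads, 192 and 91 with STAT3 shRNA and 24 and 34 with Ctrl shRNA. TF had 24 and 8 reads against 38 and 41. The name HepG2 below is that of the labels. The levels of ALB and APOA1 go against a hepatocyte identity of the cells, but the identity was not tested.

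Reads of the 37 collagens made up 0.215% and 0.200% of the STAT3 shRNA libraries (95% Wilson intervals 0.213% to 0.217% and 0.198% to 0.203%, counting error only) and 0.261% and 0.258% of the Ctrl shRNA libraries (0.259% to 0.263% and 0.256% to 0.260%). Their CPM summed to 2085 and 1928 with STAT3 shRNA, below the 2668 and 2718 with Ctrl shRNA. The sum for type IV genes was 459.6 and 421 CPM against 709 and 756 CPM. Fibrillar genes summed to 683 and 643 CPM against 864 and 918 CPM, and the other types to 942 and 864 CPM against 1095 and 1044 CPM. In each of the 3 classes both STAT3 shRNA libraries lay below both Ctrl shRNA libraries, with the widest relative gap for type IV. A few genes carried these sums. The 5 collagens with the most reads held 87.9% and 87.2% of collagen reads in the STAT3 shRNA libraries. In the Ctrl shRNA libraries the top 5 held 83.6% and 82.4%. COL7A1, of the other types, averaged 167 CPM with STAT3 shRNA and 307 CPM with Ctrl shRNA. The 11 tested other types had a median log2 fold change of 0.01, so their lower sum is not a fall of each member.

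Of the 37 genes, 23 had enough reads to test, and 14 of these differed between the groups at an adjusted p under 0.05 (two-sided edgeR quasi-likelihood test with p-values adjusted by Benjamini-Hochberg across the 15199 tested genes). With STAT3 shRNA 10 fell and 4 rose. That is 60.9% of the tested collagens and 37.8% of the 37 rows, where 35.5% of all tested genes changed. Falls took 10 of 23 where 18.7% of all tested genes fell, and rises 4 of 23 where 16.8% rose. A low gene passes the read filter more easily when one group is high, so these shares are a description of the members and not a test of the family. The median log2 fold change of the tested collagens was -0.24, beside 0.02 for all tested genes. In 19 of the 23 the groups had no overlap in CPM, 13 lower and 6 higher, where 70.8% of all tested genes did not overlap. With an offset for GC content of the transcripts the split was 8 lower and 6 higher. Over all 15199 tested genes that setting gave 2668 lower and 2474 higher. With DESeq2 the split of the collagens was 10 lower and 2 higher. Over the 16414 genes that DESeq2 tested it was 2428 lower and 1630 higher, so rises were fewer in the whole table as well.

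**Figure D1:**
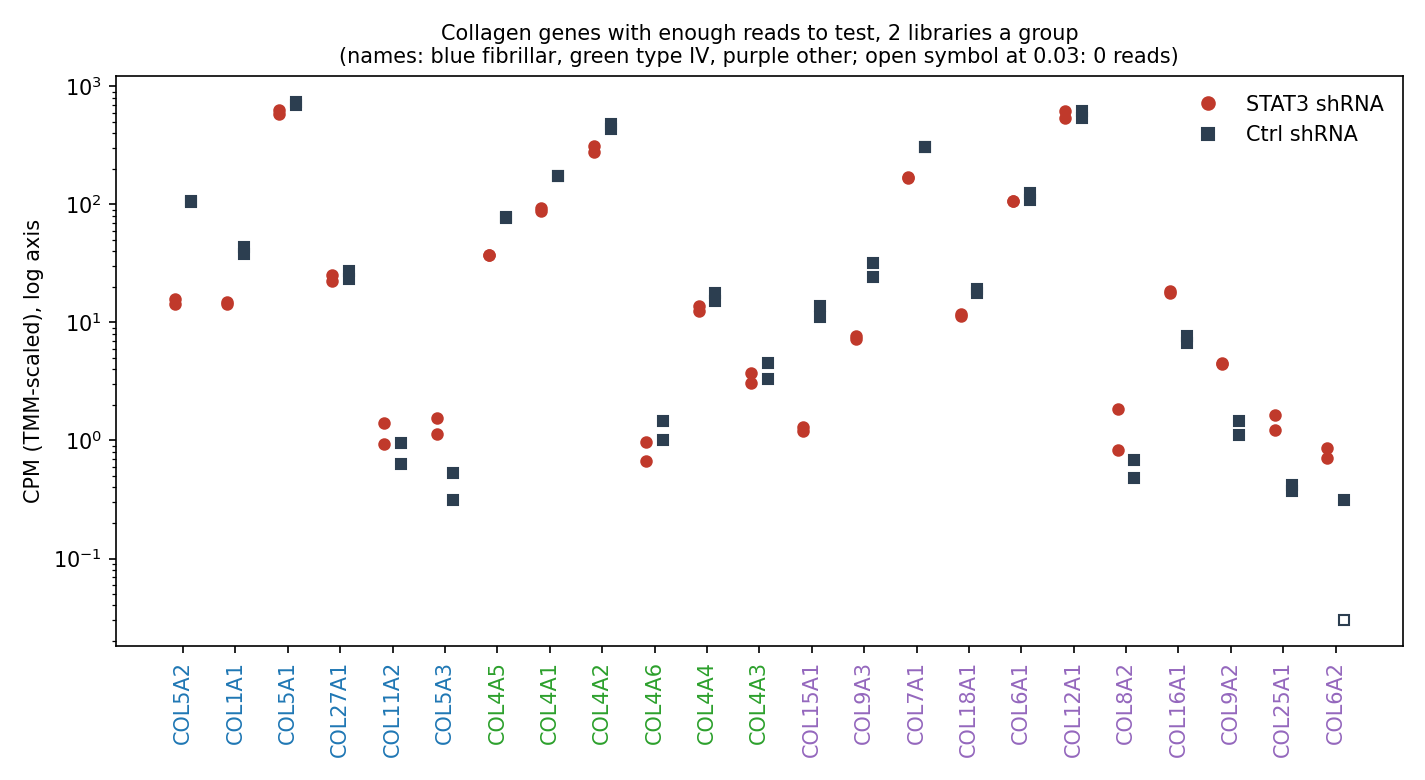
TMM-scaled CPM (log axis) of the 23 tested collagen genes in 2 STAT3 shRNA libraries (circles) and 2 Ctrl shRNA libraries (squares), by class. COL5A2, COL1A1 and COL15A1 show wide gaps between the groups, while COL12A1 and COL27A1 overlap.

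**Figure D2:**
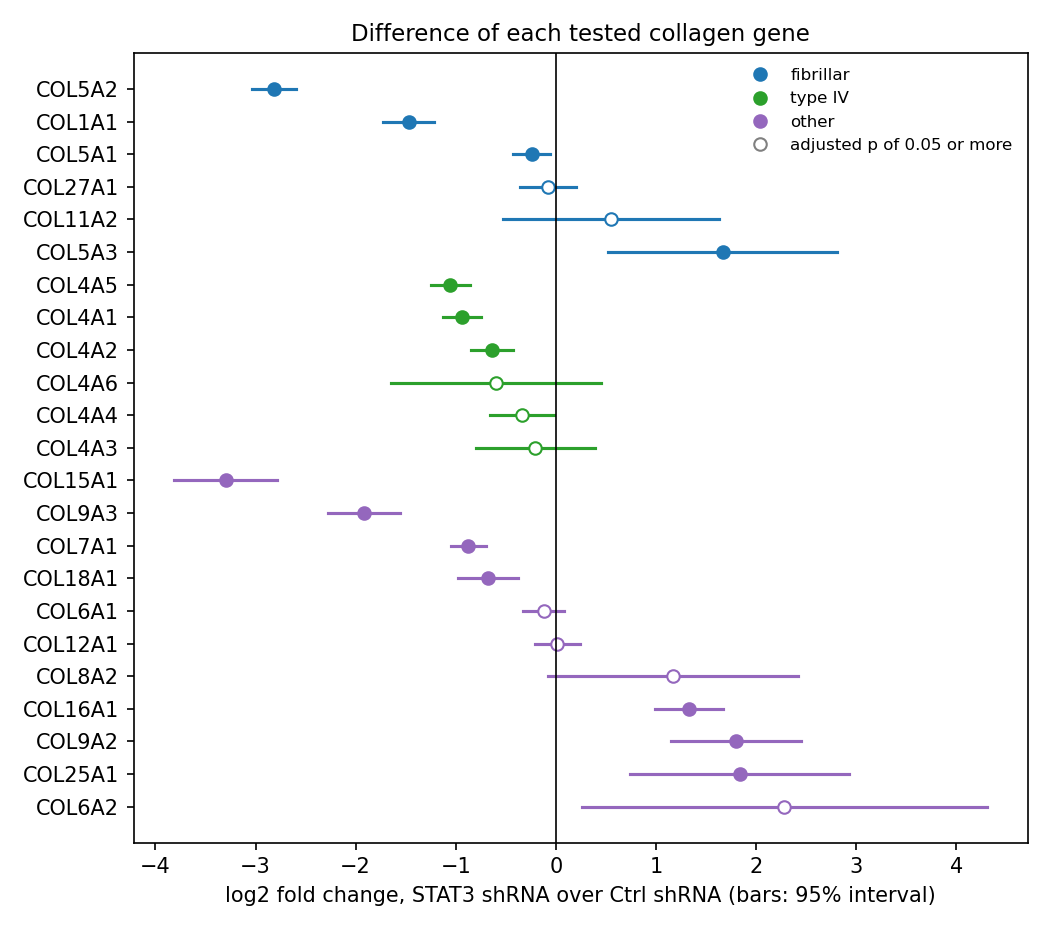
Log2 fold changes of STAT3 shRNA over Ctrl shRNA (points) with 95% intervals (bars) for the 23 tested collagen genes, by class. Filled points passed an adjusted p of 0.05: 10 lie left of 0 and 4 right of it, and the type IV genes all lie left of it.

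Among fibrillar collagens the genes for the partner chains of type V collagen moved apart. COL5A2, which encodes the chain that pairs with COL5A1 products in the regulators of fibril diameter (ENSG00000204262.13; chr2:189031896-189225312, minus strand, GRCh38), had 14.4 and 15.7 CPM with STAT3 shRNA and 106 and 105 CPM with Ctrl shRNA. The 2 groups were far apart compared with the spread within either. COL5A2 was 7.04-fold lower, with a log2 fold change of -2.82 ± 0.10 (95% interval -3.04 to -2.60; adjusted p = 6.94e-07, edgeR). COL5A1 (ENSG00000130635.15; chr9:134641774-134844843, plus strand) was the collagen with the most reads, at 626 and 588 CPM with STAT3 shRNA and 695 and 741 CPM with Ctrl shRNA. Its log2 fold change of -0.24 ± 0.08 passed narrowly (adjusted p = 0.0451 in the edgeR test). The COL5A1 call was lost without STAT3 shRNA replicate 1 (adjusted p = 0.206) or 2 (0.391), with upper-quartile scaling (0.0865) and with a GC offset (0.966), where its log2 fold change was -0.0048. Its deposited FPKM were 91.0 and 88.8 with STAT3 shRNA and 87.9 and 89.7 with Ctrl shRNA, groups that overlap.

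Within a library the ratio of COL5A1 to COL5A2 reads does not depend on scaling. It was 43.4 and 37.5 in the STAT3 shRNA libraries and 6.55 and 7.03 in the Ctrl shRNA libraries. Per transcript length, by the authors' FPKM, the ratio was 25.6 and 20.3 against 3.11 and 2.88. COL5A3, another type V chain found in fewer tissues, had 41 and 21 reads in the STAT3 shRNA libraries and 10 and 6 in the Ctrl shRNA libraries. Its log2 fold change of 1.67 ± 0.50 passed (adjusted p = 0.0315 in the edgeR test), but not without Ctrl shRNA replicate 2 (0.142), without STAT3 shRNA replicate 1 (0.291) or 2 (0.108), or with DESeq2 (0.175). At 0.20 to 0.27 FPKM with STAT3 shRNA it stayed far under COL5A2, which was at 3.56 and 4.37 FPKM in the same libraries.

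COL1A1, the major chain of type I collagen (ENSG00000108821.13; chr17:50183289-50201632, minus strand), was at 15.01 and 14.3 CPM with STAT3 shRNA and 38.1 and 43.2 CPM with Ctrl shRNA. Both STAT3 shRNA libraries were below both Ctrl shRNA libraries, and the log2 fold change was -1.47 ± 0.11 (95% interval -1.72 to -1.21; adjusted p = 5.00e-05, edgeR). COL1A2, the partner chain of type I, was not analysed here. COL27A1, a fibrillar collagen of cartilage, was at 25.5 and 22.3 CPM against 23.3 and 27.2 CPM, and its groups overlapped (log2 fold change -0.08, 95% interval -0.36 to 0.20; adjusted p = 0.656 in the edgeR test). The sign for COL27A1 turned under 5 alternatives, and its deposited FPKM, 5.86 and 5.24 with STAT3 shRNA and 3.51 and 3.72 with Ctrl shRNA, did not overlap and were higher with STAT3 shRNA. COL11A2, a chain of the cartilage collagen type XI, had 25 and 26 reads with STAT3 shRNA and 18 and 12 with Ctrl shRNA, and did not pass (adjusted p = 0.401, edgeR). The 4 untested fibrillar genes had few reads. COL3A1, which joins type I in soft tissues, had 1 and 0 reads with STAT3 shRNA and 1 and 8 with Ctrl shRNA, while COL2A1, COL11A1 and COL24A1 had 0 reads with STAT3 shRNA and 1 or 2 reads in total with Ctrl shRNA. COL5A1, COL5A2, COL1A1 and COL27A1 were the fibrillar genes above 10 CPM in every library.

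All 6 type IV genes were tested. COL4A1, COL4A2 and COL4A5 fell, and the log2 fold changes of the other 3 were below 0 without passing the test. COL4A1 and COL4A2, which encode the chains of the ubiquitous basement membrane trimer, lie head to head on chromosome 13. Their RefSeq starts (GRCh38.p14) are 127 bases apart, so by these starts both read outward from one short interval. The stretch below lies between the RefSeq starts, at chr13:110307167-110307195 on the minus strand, and is shown because the pair fell together. By the longer GENCODE 29 spans given in the next paragraph the genes overlap, and the stretch lies within both. The capitals mark a CCAAT box, which reads as such on the strand of COL4A2 and lies 26 bases before the start of COL4A1 (105 bases before that of COL4A2).
COL4A1/COL4A2: cagcgccaacaaATTGGggagctcggccc
The letters CCAAT, on either strand, occur within 250 bases before 32% of all 35116 listed starts, and before 11 of the 37 listed starts of collagens.

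COL4A1 (ENSG00000187498.16; chr13:110148963-110307233, minus strand) was at 93.5 and 87.9 CPM with STAT3 shRNA and 173 and 175 CPM with Ctrl shRNA. Its log2 fold change was -0.94 ± 0.08 (95% interval -1.12 to -0.75; adjusted p = 9.80e-05, edgeR). COL4A2 (ENSG00000134871.18; chr13:110305812-110513209, plus strand) was at 311 and 279 CPM with STAT3 shRNA and 439 and 480.1 CPM with Ctrl shRNA. Its log2 fold change was -0.64 ± 0.09 (95% interval -0.84 to -0.43; adjusted p = 0.000997, edgeR). With a GC offset COL4A2 was at -0.36 and COL4A1 at -0.79, and both still passed. By deposited FPKM the log2 ratio of means was -0.37 for COL4A2 and -0.59 for COL4A1, so the size of these falls depended on the processing. Neither gene's groups overlapped. Reads of COL4A1 per read of COL4A2 were 0.301 and 0.315 with STAT3 shRNA and 0.394 and 0.364 with Ctrl shRNA, a small shift in the same direction in both libraries. The annotated spans of these opposite-strand genes overlap but their exons share 0 bases.

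COL4A5, a chain of the kidney, lung and smooth muscle basement membranes (ENSG00000188153.13; chrX:108439844-108697545, plus strand), was at 37.4 and 37.1 CPM with STAT3 shRNA and 77.5 and 77.2 CPM with Ctrl shRNA. The replicates were close to each other and the groups far apart, with a log2 fold change of -1.05 ± 0.09 (95% interval -1.25 to -0.86; adjusted p = 7.59e-05, edgeR). Its head-to-head neighbour COL4A6 had 18 and 18 reads with STAT3 shRNA and 19 and 28 with Ctrl shRNA, too few to separate the groups (log2 fold change -0.60, 95% interval -1.64 to 0.45). The nearest listed starts of this pair are 380 bases apart. Reads of COL4A5 per read of COL4A1 were 0.400 and 0.422 with STAT3 shRNA and 0.448 and 0.442 with Ctrl shRNA.

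COL4A3 and COL4A4, chains of the glomerular basement membrane and the remaining head-to-head pair, did not pass. COL4A4 was at 13.8 and 12.4 CPM with STAT3 shRNA and 15.3 and 17.8 CPM with Ctrl shRNA (log2 fold change -0.34 ± 0.14; adjusted p = 0.0967, edgeR). Without Ctrl shRNA replicate 1 it passed, at -0.47 (adjusted p = 0.0204). COL4A3 was at 3.08 and 3.75 CPM against 3.34 and 4.50 CPM, with overlapping groups (adjusted p = 0.579, edgeR). Both lie on chromosome 2, where the 34 tested genes within 5 Mb had a median log2 fold change of -0.54, with 20 lower and 1 higher.

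The multiplexins, basement membrane collagens whose ends are released as inhibitors of vessel growth, fell. COL15A1 (ENSG00000204291.11; chr9:98943179-99070792, plus strand) had the largest fold change of the tested collagens. With STAT3 shRNA it had 1.31 and 1.20 CPM (35 and 22 reads), and with Ctrl shRNA 11.1 and 13.9 CPM (209 and 265 reads). COL15A1 was 9.85-fold lower, at a log2 fold change of -3.30 ± 0.23 (95% interval -3.81 to -2.79; adjusted p = 2.84e-05, edgeR). COL18A1, the precursor of endostatin, was at 11.3 and 11.9 CPM against 17.8 and 19.3 CPM, a log2 fold change of -0.68 ± 0.13 (adjusted p = 0.00457, edgeR). With a GC offset COL18A1 was at -0.28 and did not pass (adjusted p = 0.0997). Its exons share 1401 bases with SLC19A1, a folate carrier on the opposite strand that had 2363 reads with STAT3 shRNA and 2849 with Ctrl shRNA, against 520 and 705 reads of COL18A1 itself. SLC19A1 fell as well (log2 fold change -0.52, adjusted p = 0.00225, edgeR). Where strand was not used, reads within the shared bases cannot be assigned to either gene, while reads elsewhere in the exons can.

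COL7A1, which forms the fibrils that anchor the epidermal basement membrane (ENSG00000114270.17; chr3:48564073-48595267, minus strand), was an abundant member at 169 and 166 CPM with STAT3 shRNA and 308 and 306 CPM with Ctrl shRNA. The groups were far apart and the log2 fold change was -0.88 ± 0.08 (95% interval -1.05 to -0.70, adjusted p = 0.000105, edgeR). With a GC offset COL7A1 was at -0.53 (adjusted p = 0.0014, edgeR). The 250 bases before its RefSeq start, at chr3:48595330-48595579 on the minus strand (GRCh38.p14), are shown because they hold a motif of STAT proteins. STAT dimers bind GAS elements, searched here as TTCNNNGAA on both strands, and the capitals mark 2 matches that start 162 and 152 bases before the COL7A1 start.
COL7A1: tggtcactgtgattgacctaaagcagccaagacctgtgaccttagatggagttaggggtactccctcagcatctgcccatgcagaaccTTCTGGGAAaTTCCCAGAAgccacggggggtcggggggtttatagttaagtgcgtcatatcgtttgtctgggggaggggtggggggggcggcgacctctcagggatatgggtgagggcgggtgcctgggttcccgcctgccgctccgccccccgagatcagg
The 2 matches do not overlap. These letters occur in 6.57% of the windows before all 35116 listed starts and in 1 of the 37 windows of collagens, which cover 28 of the genes (7 of the 10 that fell, the 4 that rose, 8 of the 9 that did not pass and 9 of the 14 untested). This promoter was chosen for printing after the motif search. A match is a description of the sequence, and binding was not measured.

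The collagens that sit on the surface of fibrils (FACIT types) moved in both directions, and the genes for chains of type IX, a coat of cartilage fibrils, moved apart. COL9A3 (ENSG00000092758.17; chr20:62816244-62841159, plus strand) was at 7.69 and 7.28 CPM with STAT3 shRNA and 24.4 and 32.2 CPM with Ctrl shRNA, a log2 fold change of -1.92 ± 0.16 (adjusted p = 8.22e-05, edgeR). COL9A2 (ENSG00000049089.15; chr1:40300487-40317813, minus strand) was at 4.43 and 4.57 CPM with STAT3 shRNA and 1.11 and 1.46 CPM with Ctrl shRNA, a log2 fold change of 1.80 ± 0.29 (adjusted p = 0.00183, edgeR). Reads of COL9A2 per read of COL9A3 were 0.576 and 0.627 in the STAT3 shRNA libraries and 0.0456 and 0.0455 in the Ctrl shRNA libraries. COL9A1 was not analysed here. The exons of COL9A3 share 45 bases with TCFL5 on the opposite strand, which had more reads than COL9A3 (1959 with STAT3 shRNA and 1558 with Ctrl shRNA) and did not pass the test (log2 fold change 0.08).

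**Figure D3:**
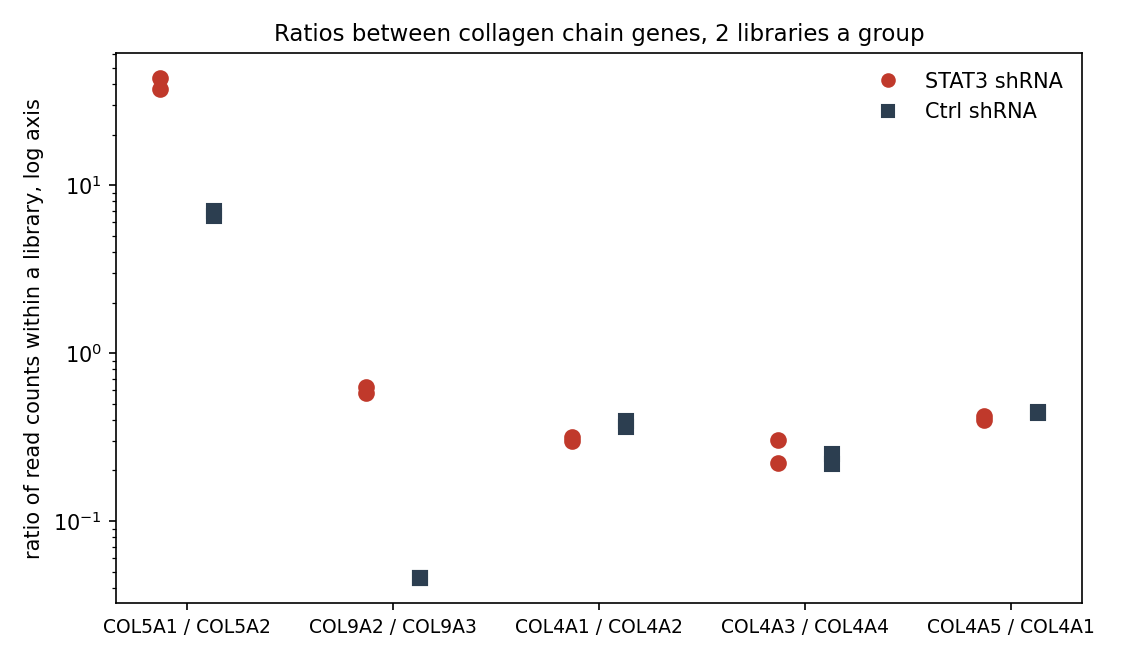
Ratio of read counts (log axis) between genes for collagen chains within each of 2 STAT3 shRNA libraries (circles) and 2 Ctrl shRNA libraries (squares). COL5A1 per COL5A2 and COL9A2 per COL9A3 lie higher with STAT3 shRNA, and the ratios among type IV genes shift little.

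COL16A1, a fibril-associated collagen of skin and cartilage (ENSG00000084636.18; chr1:31652247-31704319, minus strand), was the most abundant member that rose. It was at 17.8 and 18.3 CPM with STAT3 shRNA and 7.74 and 6.64 CPM with Ctrl shRNA, with a log2 fold change of 1.33 ± 0.15 (95% interval 0.99 to 1.67; adjusted p = 0.000342, edgeR). COL12A1, which binds type I fibrils in tendon and other loaded tissues, was among the collagens with the most reads and showed no separation of the groups. It was at 619 and 542 CPM with STAT3 shRNA and 615 and 537 CPM with Ctrl shRNA, with a log2 fold change of 0.01 and a 95% interval of -0.21 to 0.24 (adjusted p = 0.936, edgeR), whose sign turned under 5 alternatives. COL14A1 and COL20A1, also of this kind, had too few reads to test.

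Of the beaded-filament type VI genes COL6A1 was abundant and its partner genes were almost without reads. COL6A1 was at 107 and 107 CPM with STAT3 shRNA and 108 and 124 CPM with Ctrl shRNA (log2 fold change -0.12, 95% interval -0.33 to 0.09; adjusted p = 0.331, edgeR). Its direction depended on the processing: with a GC offset it was 0.20 (adjusted p = 0.0377), and without Ctrl shRNA replicate 1 it was -0.25 (adjusted p = 0.00927). COL6A2 had 23 and 13 reads with STAT3 shRNA and 0 and 6 reads with Ctrl shRNA, a log2 fold change of 2.28 that did not pass (adjusted p = 0.0767, edgeR) but passed with the replicate block (0.0429), a GC offset (0.0434), no read filter (0.0242) and without Ctrl shRNA replicate 2 (0.0139). COL6A3, the chain that completes the common type VI trimer, had 2 and 0 reads with STAT3 shRNA and 0 and 0 with Ctrl shRNA.

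COL25A1, a transmembrane collagen of neurons, had 33 and 30 reads with STAT3 shRNA and 7 and 8 with Ctrl shRNA. Its log2 fold change was 1.84 ± 0.48 (95% interval 0.74 to 2.93; adjusted p = 0.0181, edgeR), a call that was lost with DESeq2 (0.111) and when any 1 of the libraries was left out (0.0538 to 0.185). COL8A2, of the short-chain network collagens, had 22 and 34 reads with STAT3 shRNA and 9 and 13 with Ctrl shRNA and did not pass (adjusted p = 0.13, edgeR). The 14 untested collagens (COL2A1, COL3A1, COL6A3, COL6A6, COL8A1, COL10A1, COL11A1, COL13A1, COL14A1, COL17A1, COL20A1, COL24A1, COL26A1 and COL28A1) had at most 11 reads in a library. At this depth no difference in them was detectable.

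Levels per length, from the authors' FPKM, gave the order among genes. With STAT3 shRNA 7 collagens averaged at least 10 FPKM: COL5A1 at 89.9 ± 1.57, COL12A1 at 70.5 ± 2.57, COL4A2 at 64.8 ± 0.523, COL6A1 at 39.9 ± 3.15, COL7A1 at 29.3 ± 3.85, COL4A1 at 18.6 ± 0.106 and COL4A5 at 12.4 ± 0.113 (SD, n = 2). With Ctrl shRNA 10 did so, led by COL5A1 at 88.8 ± 1.24, COL4A2 at 84.0 ± 7.42, COL12A1 at 60.9 ± 9.67 and COL7A1 at 57.6 ± 3.37. COL5A1 and COL4A2 in Ctrl shRNA lay within their spread of each other, as did COL12A1 and COL7A1. COL5A2 (29.7 ± 2.02), COL9A3 (21.3 ± 1.61) and COL1A1 (15.7 ± 1.25) were at or above 10 FPKM with Ctrl shRNA and at 3.97 ± 0.573, 6.94 ± 0.226 and 4.80 ± 0.255 FPKM with STAT3 shRNA. Tests on FPKM (limma-trend) called few genes of any kind, and 3 collagens at a pseudocount of 0.1: COL5A2, COL1A1 and COL9A3, lower with STAT3 shRNA.

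Collagen chains are hydroxylated, folded and exported by dedicated proteins and then trimmed and cross-linked outside the cell. Of 40 listed genes of these steps 38 had a row and 35 were tested, of which 10 rose, 10 fell and 15 did not pass (edgeR), a share of 57.1% changed beside 35.5% of all tested genes, with a median log2 fold change of 0.14. The lysyl hydroxylases PLOD1 and PLOD2, which prepare lysines for sugar addition and cross-links, fell together. PLOD1 was at 112 and 108 CPM with STAT3 shRNA and 218 and 225 CPM with Ctrl shRNA (log2 fold change -1.01 ± 0.08, adjusted p = 6.46e-05, edgeR). PLOD2 was at 70.5 and 79.9 CPM against 152 and 142 CPM (-0.96 ± 0.09, adjusted p = 0.000164, edgeR). PLOD3, which also transfers sugars, had a log2 fold change of -0.09 and did not pass.

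RNA of the genes for prolyl hydroxylation differed gene by gene. P3H2, a prolyl 3-hydroxylase that acts on type IV collagen, was at 46.8 and 48.9 CPM with STAT3 shRNA and 13.999 and 15.7 CPM with Ctrl shRNA, a log2 fold change of 1.68 ± 0.11 (adjusted p = 2.07e-05, edgeR). P3H3 rose by 1.18 on the log2 scale and P3H4, which works with it on lysine hydroxylation, was at -0.40. P4HA3, a minor catalytic subunit of prolyl 4-hydroxylase, fell to 1.43 and 1.25 CPM with STAT3 shRNA against 3.50 and 6.01 CPM with Ctrl shRNA, while the major subunits P4HA1, P4HA2 and P4HB, at log2 fold changes of 0.14, -0.24 and 0.14, did not pass. SERPINH1 (HSP47), the collagen-specific chaperone, was at 154 and 152 CPM against 203 and 201 CPM (log2 fold change -0.40 ± 0.08, adjusted p = 0.00456, edgeR). The call of SERPINH1 was lost in 2 of the 11 alternatives on counts.

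Outside the cell, LOX, the lysyl oxidase that starts cross-linking, was at 11.6 and 17.1 CPM with STAT3 shRNA and 35.6 and 41.1 CPM with Ctrl shRNA (log2 fold change -1.43 ± 0.17, adjusted p = 0.00045, edgeR). LOXL4 rose to 4.58 and 3.86 CPM against 1.54 and 1.46 CPM, and LOXL2, the gene of this family with the highest FPKM, did not pass (adjusted p = 0.111). BMP1, the protease that removes procollagen C-terminal ends, was at 71.6 and 69.0 CPM against 106 and 115 CPM (log2 fold change -0.65 ± 0.09, adjusted p = 0.000733, edgeR). The remaining called genes were COLGALT1, PEPD and PPIB, lower, and CREB3L1, FKBP10, FKBP14, MIA2, PCOLCE, SEC24D and TMEM38B, higher. Calls of 8 of the 20 held in each of 11 alternatives on counts: PLOD1, PLOD2, LOX, BMP1, P4HA3, P3H2, P3H3 and LOXL4.

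**Figure D4:**
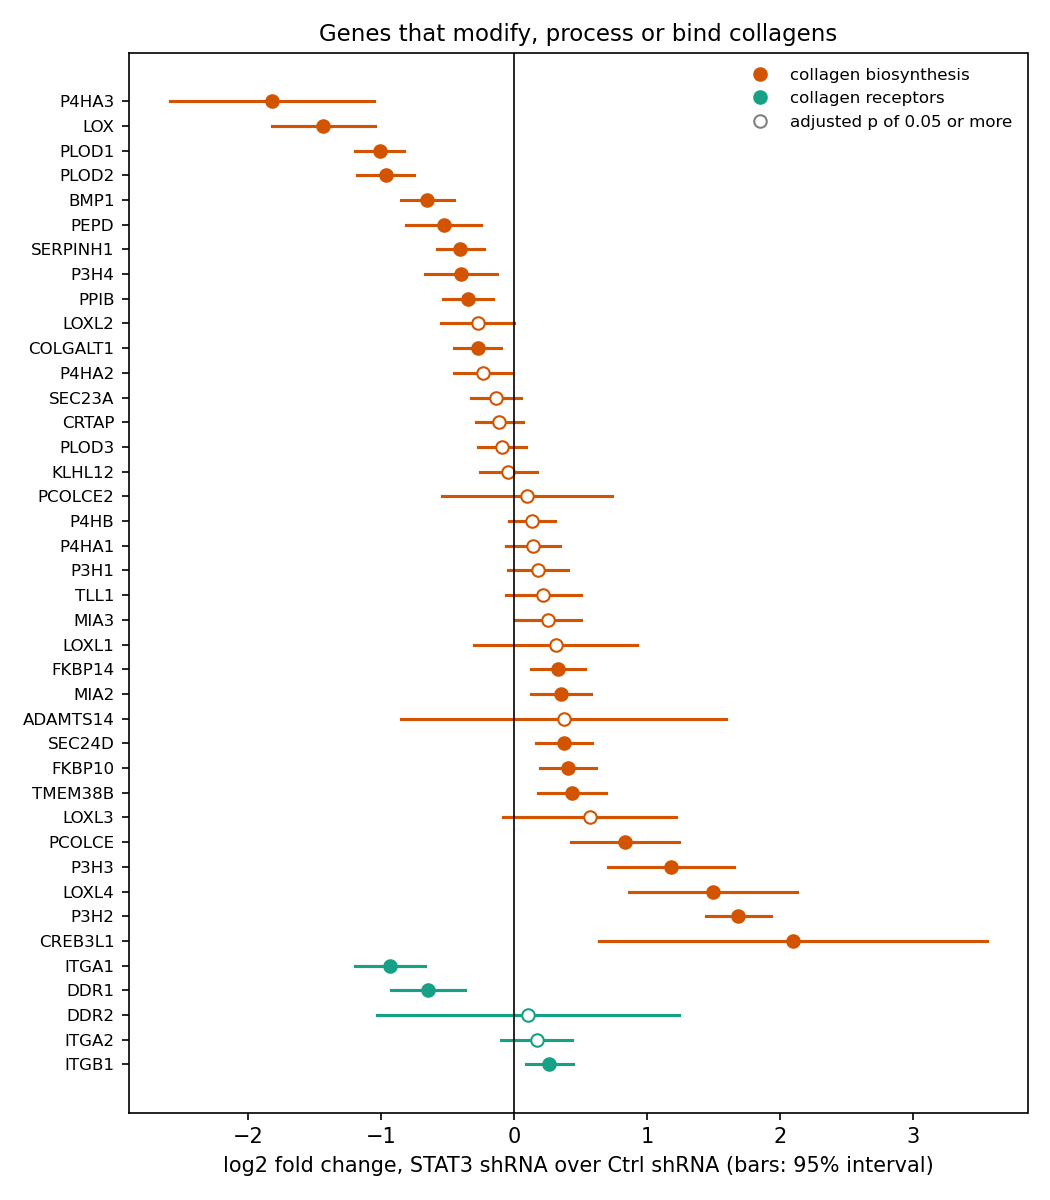
Log2 fold changes of STAT3 shRNA over Ctrl shRNA with 95% intervals for 35 tested genes of collagen biosynthesis and 5 tested collagen receptor genes; filled points passed an adjusted p of 0.05. LOX, PLOD1 and PLOD2 lie left of 0 and P3H2 right of it.

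Of 10 listed collagen receptor genes 9 had a row and 5 were tested: 2 fell, 1 rose and 2 did not pass. Among all tested genes 18.7% fell and 16.8% rose. ITGA1, the integrin subunit that prefers type IV collagen, was at 17.6 and 18.8 CPM with STAT3 shRNA and 37.3 and 32.0 CPM with Ctrl shRNA (log2 fold change -0.93 ± 0.12, adjusted p = 0.000557, edgeR). DDR1, a receptor kinase activated by collagen, was at 41.3 and 47.3 CPM against 61.7 and 76.6 CPM (-0.64 ± 0.12, adjusted p = 0.00433, edgeR). ITGB1, the common beta subunit, was at 806 and 827 CPM against 696 and 662 CPM (0.27 ± 0.08, adjusted p = 0.0268, edgeR), a call lost in 3 of the 11 alternatives on counts. ITGA2, which prefers fibrillar collagen, did not pass (log2 fold change 0.17).

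Marker lists of other cell types differed in direction. Of 10 stellate cell and fibroblast markers 8 had a row, and they summed to 32.2 and 29.6 CPM with STAT3 shRNA and 19.4 and 23.3 CPM with Ctrl shRNA. Of the 5 tested, 2 rose and 0 fell, a share of 40% changed beside 35.5% of all tested genes. ACTA2 and DCN rose (log2 fold changes 1.08 and 0.46). PDGFRB (0.19), RGS5 (0.56) and DES (-0.90) did not pass, and DES was at 0.488 and 0.652 CPM with STAT3 shRNA and 0.901 and 1.20 CPM with Ctrl shRNA. DPT had 12 and 6 reads against 0 and 0, and SPARC, abundant in such cells, had 0 and 3 reads against 0 and 0. Endothelial markers summed to 1.28 and 1.74 CPM against 1.75 and 1.20 CPM, and leukocyte markers to 24.5 and 28.2 CPM against 11.1 and 14.8 CPM, nearly all CD68. The cholangiocyte markers summed to 899.99 and 871 CPM against 1165 and 1288 CPM, with KRT7 lower and KRT19 and EPCAM higher. The part of these shifts in the collagen results was not tested, and in bulk RNA a change in the share of cells and one in RNA per cell cannot be told apart.

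Chromosomal surroundings were set beside the called collagens, since neighbouring genes can differ together. The 22 tested genes within 5 Mb of COL5A2 had a median log2 fold change of -0.20, with 7 lower and 0 higher, and each of the 22 lay above COL5A2. Around COL15A1 the median of 52 genes was 0.23, and each of them lay above COL15A1. The 36 neighbours of COL4A1, COL4A2 among them, had a median of 0.04, the 24 of COL4A5 0.05 and the 103 of COL1A1 0.08. These falls stood apart from the middle of their surroundings. The 76 neighbours of COL9A3 leaned lower (median -0.21), as did the 160 of COL7A1 (-0.12). Of these neighbours 1 lay below COL9A3 and 9 lay below COL7A1. COL5A1 lay in the middle of its own: of 125 neighbours, with a median of -0.22, 61 had lower and 64 higher log2 fold changes. COL18A1 lay near the lower quartile (-0.57) of 69 genes with a median of -0.14.

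**Figure D5:**
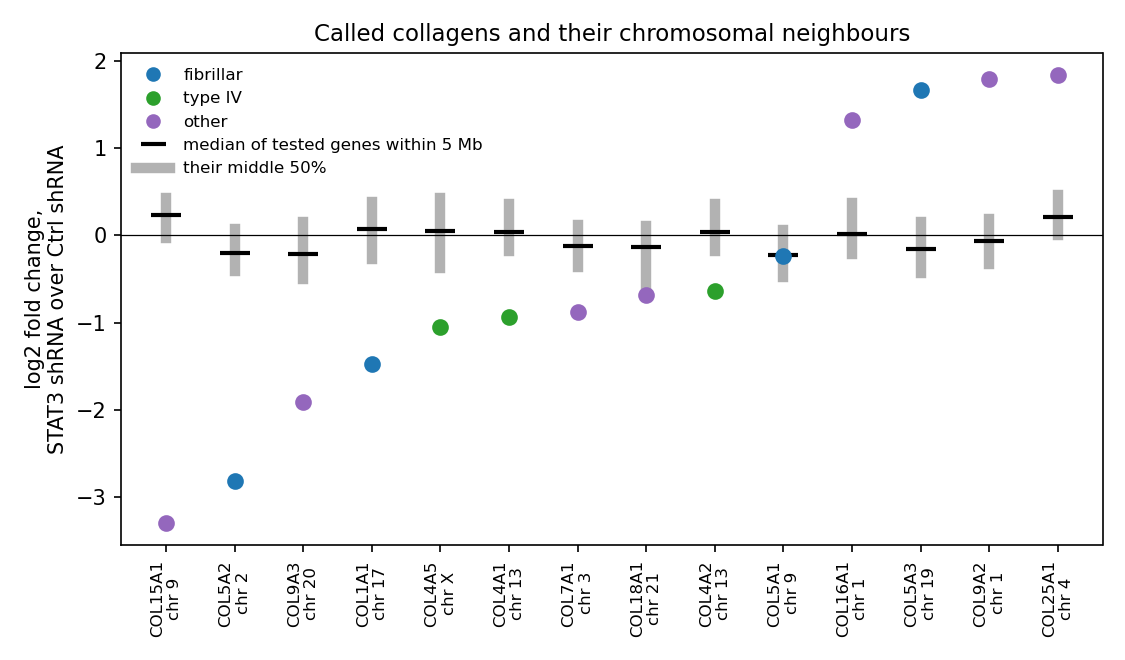
Log2 fold changes of STAT3 shRNA over Ctrl shRNA for the 14 called collagens (points, by class), with the median (line) and middle 50% (grey) of tested genes within 5 Mb. COL5A1 sits on the median of its neighbours, and COL15A1 and COL5A2 lie far below theirs.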

How the data were processed

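The authors deposited 2 tables with 1 column per library. One holds unnormalized whole-number read counts, the other FPKM (deposited by the authors, named so in the file headers). The sources used here do not give aligner, counter, build, annotation or strandedness. Columns were matched to sample titles by name; the labels do not explain "Si" in 2 column names, which was taken to mean STAT3 shRNA. Positions, exons and GC content are from GENCODE 29 (GRCh38; 17 of the 37 collagen IDs have the same version there), promoters from RefSeq GRCh38.p14.

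The test was edgeR 4.0.16 (R 4.3.3) on TMM-scaled counts after filterByExpr, by glmQLFit and a two-sided glmQLFTest on a group-only design. P-values were adjusted over 15199 genes (Benjamini-Hochberg, threshold 0.05). SEs of log2 fold changes come from the quasi-likelihood F, and CPM are TMM-scaled. Alternatives used limma 3.58.1 and DESeq2 1.42.0. Copies of the 23 tested collagens with at least 95% identity over 50% of the longest transcript were sought with blastn 2.17.0, and 0 were found. The procedure was also run on counts simulated at the common dispersion, with far fewer changed genes than were called here. That setting is simpler than these data and does not vouch for their calls.

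The named genes were STAT3, the collagens, and the called members of the biosynthesis and receptor lists with values for the 8 smallest p-values of each, the marker lists by level, and exon-sharing partners of called collagens. Values of SERPINH1, PLOD3, P3H4, the P4H subunits, LOXL2, ITGA2 and SPARC, and the calls and fold changes of single markers, were added after they were seen. Members, lists and tests were chosen with earlier results of these data known.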

Additional observations from a re-analysis of the deposited data

How the results depend on the processing

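Calls of 10 of the 14 collagens (8 lower, 2 higher) held in each of 11 alternatives on counts; COL5A1, COL5A3, COL18A1 and COL25A1 each lost theirs in at least 1. Leaving out 1 library (the lone library of a group is then assumed to vary like the other pair) gave 2527 to 7291 changed genes, 1128 to 3367 higher and 1399 to 3924 lower, against 5396, 2552 and 2844. It gave 11 to 15 changed collagens, 2 to 3 higher and 9 to 12 lower, 2 to 4 fibrillar, 3 to 4 type IV and 6 to 7 others, 9 to 23 biosynthesis and 2 to 3 receptor genes. Without STAT3 shRNA replicate 1 or 2 the count over all genes was 2527 or 2567. DESeq2 called 1630 genes and 2 collagens higher. At an adjusted p under 0.01 there were 2897 genes (1265 higher, 1632 lower), 2 collagens higher, 2 fibrillar collagens and 11 biosynthesis genes.

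With limma-trend on log2(FPKM + 1), 25 genes were called (18 higher, 7 lower), and 0 collagens, in either direction or any of the 3 classes, 0 biosynthesis and 0 receptor genes. At a pseudocount of 0.1 there were 92 genes (50 higher, 42 lower), 3 collagens (0 higher, 3 lower: 2 fibrillar, 0 type IV, 1 other), 0 biosynthesis and 0 receptor genes. At an unadjusted p under 0.05, limma gave 13 collagens with a pseudocount of 1 and 12 with 0.1 (3 of them type IV in each), 21 biosynthesis genes in each, and 2 and 3 receptor genes, where 5850 (22.4%) and 5915 (22.6%) of 26158 genes did so; the cause of the lower counts was not tested.

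The labels do not say whether the replicate numbers pair libraries. Libraries of the same number shared little deviation from their group means (correlation -0.0286). With 2 libraries a group this does not show whether they were prepared as pairs. With the replicate block 5447 genes and 15 collagens were called, COL6A2 being the added one, and 0 collagen calls were lost.

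Log2 fold changes changed sign for COL12A1 (-0.0034 with RLE scaling, -0.011 with DESeq2, -0.073 with a GC offset, -0.086 to 0.10 without 1 library), COL27A1 (-0.21 to 0.035 without 1 library, 0.50 and 0.60 with FPKM, 0.19 with a GC offset), COL4A3 (-0.44 to 0.018 without 1 library), COL5A1 (0.018 with FPKM at either pseudocount) and COL6A1 (0.37 and 0.38 with FPKM, 0.20 with a GC offset). Among these, the COL6A1 value with a GC offset passed the test (adjusted p = 0.0377). Genes near 1 CPM, such as COL5A3, COL25A1 and COL6A2, are limited by depth.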
